A study of Homo sapiens with 12 samples.

Results

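The clade B serpins are a family of protease inhibitors that stay mostly inside the cell. The genes described here were chosen by name, as SERPINB1, SERPINB6 and SERPINB9 of chromosome band 6p25 and SERPINB2, SERPINB3, SERPINB4, SERPINB5, SERPINB7, SERPINB8 and SERPINB13 of band 18q21. They make up 10 of the 58302 genes in the expression table. They were picked with the levels and changes of these same libraries already known. Their values are therefore given as a description, without p-values, and calls by the criteria used for all genes are counted only to place them among all genes.

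The study asked which genes differ in pancreatic cancer (PC) cells that have become resistant to gemcitabine (GEM), a cytidine analog used against this cancer. RNA was sequenced from BxPC-3 and CFPAC-1, established human PC lines labeled sensitive to the drug, and from the resistant derivative of each (BxPC-3-GR, CFPAC-1-GR), with 3 replicates of each line and 12 libraries in all. By the study's methods, the parental cells were exposed repeatedly to rising doses of GEM, and survivors were grown without the drug after each exposure. A last dose, higher for BxPC-3 than for CFPAC-1, was then applied until the cells grew normally. The labels describe BxPC-3-GR as mesenchymal in shape and the other lines as epithelial. They name RPMI 1640 as the medium of every line, whereas the study's methods name IMDM for CFPAC-1. The study also speaks of its resistant lines as subclones, although its methods describe no isolation of single cells. Neither source says whether GEM was present at harvest or whether replicates came from separate cultures, so the spread between replicates may be technical.

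A serpin traps its protease with an exposed reactive center loop. The protease cuts the loop as if it were a substrate, and the serpin then changes shape and locks the enzyme in a dead complex. Clade B serpins lack a classical secretion signal and protect the cell from proteases that leak from lysosomes or granules. In squamous and glandular epithelia they also mark the state of differentiation, and SERPINB5, known as maspin, is widely stained in pancreatic adenocarcinoma.

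The values were FPKM, fragments per unit of gene length and sequencing depth, so levels of different genes can be set side by side per length. The steps between low values implied between 12600000 and 25200000 mapped fragments per library. All 5 epithelial markers (EPCAM, CDH1, KRT8, KRT18 and KRT19) had a mean of at least 1 FPKM in every line. The leukocyte marker PTPRC was listed at 0 in all of them. The 7 leukocyte markers summed to at most 0.855 FPKM in BxPC-3, 0.826 in BxPC-3-GR, to between 9.53 and 11.8 in CFPAC-1, where LYZ had a mean of 7.02 and CD14 of 3.33, and to at most 6.18 in CFPAC-1-GR, where CD14 was the highest with 3.92. None of the 4 endothelial markers reached a mean of 1 FPKM in any line, and of the 6 fibroblast markers COL1A1 alone did, with at most 3.02. In CFPAC-1-GR, changes followed gene GC content, with a Spearman correlation of -0.777 across 12030 genes, against 0.0388 across 11685 genes in BxPC-3-GR. The members have low GC contents, from 38.0% in SERPINB13 to 44.9% in SERPINB1, below the median of 49.2% over the genes tested in the CFPAC-1 lines. Values corrected for GC content and length are therefore given beside those of the CFPAC-1 lines, and the part of GC content in them was not tested further.

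The bases just before the starts of 7 members are shown because they cover the members called lower in BxPC-3-GR, SERPINB5, a nearly identical pair and a member of 6p25. They are 150 bases each, 5′ to 3′ on the strand of the gene, from RefSeq on GRCh38.p14. Capitals mark TGANTCA, the letters of an AP-1 element, and TATAAA, the letters of a TATA box, both searched on both strands from 250 bases before to 50 bases after each start.
SERPINB2: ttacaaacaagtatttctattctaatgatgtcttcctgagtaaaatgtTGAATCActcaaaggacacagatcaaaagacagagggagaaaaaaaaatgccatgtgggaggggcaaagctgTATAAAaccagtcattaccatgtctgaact
SERPINB7: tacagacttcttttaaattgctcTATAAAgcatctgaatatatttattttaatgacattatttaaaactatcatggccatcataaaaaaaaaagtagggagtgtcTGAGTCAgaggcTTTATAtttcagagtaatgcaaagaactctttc
SERPINB8: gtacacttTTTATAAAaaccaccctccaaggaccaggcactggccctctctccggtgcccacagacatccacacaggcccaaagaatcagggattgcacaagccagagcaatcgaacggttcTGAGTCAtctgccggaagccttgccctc
SERPINB5: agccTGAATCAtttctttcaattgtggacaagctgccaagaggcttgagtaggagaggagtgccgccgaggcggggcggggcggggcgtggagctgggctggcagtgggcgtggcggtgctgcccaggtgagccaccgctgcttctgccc
SERPINB3: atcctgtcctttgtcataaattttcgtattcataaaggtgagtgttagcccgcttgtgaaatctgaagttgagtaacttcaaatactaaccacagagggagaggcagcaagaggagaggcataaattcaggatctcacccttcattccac
SERPINB4: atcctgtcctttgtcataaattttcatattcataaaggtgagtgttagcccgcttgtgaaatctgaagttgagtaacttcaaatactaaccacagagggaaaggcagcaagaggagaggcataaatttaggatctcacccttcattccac
SERPINB9: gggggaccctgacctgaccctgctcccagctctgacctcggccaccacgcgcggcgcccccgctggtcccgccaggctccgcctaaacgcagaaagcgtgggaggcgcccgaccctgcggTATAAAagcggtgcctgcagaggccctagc

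These stretches lie at chr18:63887555-63887704 (SERPINB2), chr18:63777631-63777780 (the most downstream of 3 RefSeq starts of SERPINB7), chr18:63969931-63970080 (SERPINB8) and chr18:63476808-63476957 (SERPINB5), all on the plus strand. Those of SERPINB3 (chr18:63661894-63662043), SERPINB4 (chr18:63644257-63644406) and SERPINB9 (chr6:2903310-2903459) are on the minus strand. In SERPINB8 the TATA box letters of both strands overlap, which makes 1 longer run of capitals. AP-1 letters were found for 5 of the 7 genes of 18q21 (SERPINB2, SERPINB5, SERPINB7, SERPINB8 and SERPINB13) and for 0 of the 3 genes of 6p25. They occur in 7.71% of all 35116 promoters in the RefSeq table and in 9.37% of the 27305 genes. The first base of the AP-1 letters lies at -102 from the start in SERPINB2, -45 in the SERPINB7 start shown and -28 in SERPINB8. The TATA box letters occur in 11.5% of all promoters, and lie at -30 in both SERPINB2 and SERPINB9 and at -33 in SERPINB7. SERPINB3 and SERPINB4 carry neither set of letters, and their 250 bases before the start are 98.8% identical, with 3 differing bases at -125, -50 and -23. The 3 members that were called lower in BxPC-3-GR (SERPINB2, SERPINB7 and SERPINB8) hold the AP-1 letters, as do SERPINB5 and SERPINB13, which were not called. The most upstream of the 3 starts of SERPINB7, however, holds neither set of letters. Counted by start, 6 of the 15 promoters of the members hold the AP-1 letters. A match of letters is a description and not a binding site.

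The share of each locus in the family total differed between the lines. The 3 genes of 6p25 summed to 45.4 ± 0.177 FPKM (mean ± SD, n = 3) in BxPC-3, 63.0 ± 3.49 in BxPC-3-GR, 83.9 ± 4.51 in CFPAC-1 and 84.5 ± 8.88 in CFPAC-1-GR. The 7 genes of 18q21 summed to 129 ± 13.1 FPKM in BxPC-3, 55.9 ± 4.51 in BxPC-3-GR, 12.3 ± 2.43 in CFPAC-1 and 17.6 ± 3.70 in CFPAC-1-GR. Genes of 18q21 thus took 73.9% ± 1.93 of the summed FPKM of the family in BxPC-3, 47.0% ± 0.747 in BxPC-3-GR, 12.8% ± 2.64 in CFPAC-1 and 17.1% ± 1.94 in CFPAC-1-GR. The shares of BxPC-3 and BxPC-3-GR did not overlap, with 71.8% to 75.6% against 46.3% to 47.7%. Those of CFPAC-1 and CFPAC-1-GR overlapped narrowly, with 9.82% to 14.9% against 14.9% to 18.6%, where the highest CFPAC-1 library was just above the lowest CFPAC-1-GR library. Most of the drop of the 18q21 sum in BxPC-3-GR was in SERPINB2, with a mean of 53.0 FPKM in BxPC-3 and 2.41 in BxPC-3-GR. SERPINB3, SERPINB4 and SERPINB13 overlapped between these 2 lines. In a bulk culture, fewer cells with a transcript and less of it per cell cannot be told apart.

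**Figure D1:**
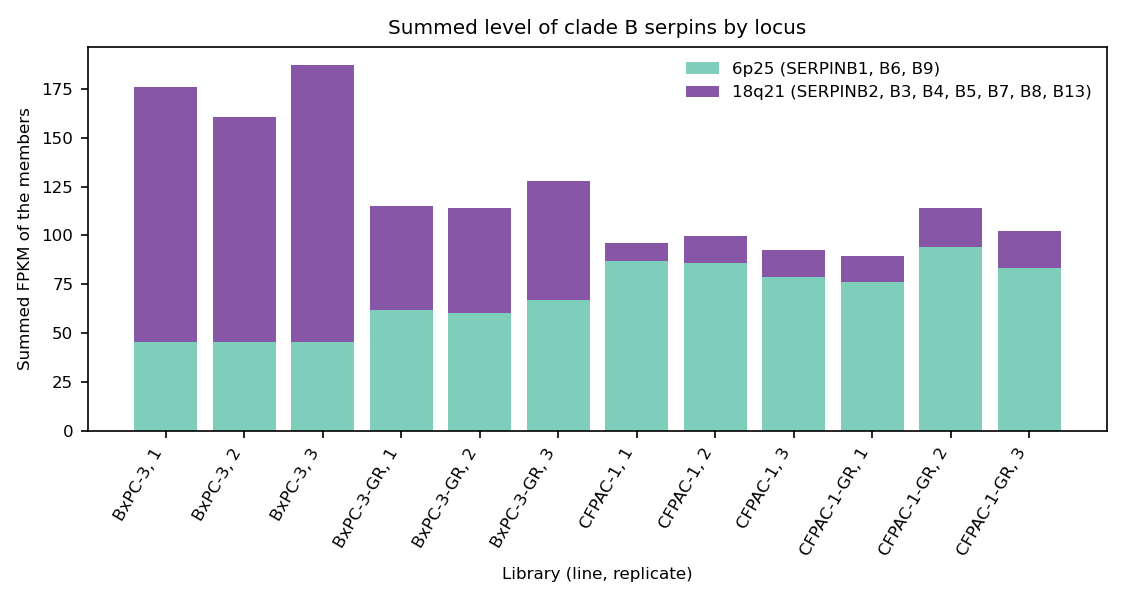
Summed FPKM of the 3 members of 6p25 (green) and the 7 members of 18q21 (purple) in each of the 12 libraries, stacked from 0. The purple part is the larger in all BxPC-3 libraries, where it holds 71.8% to 75.6% of the sum, and the smaller in every other library.

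The largest differences within the BxPC-3 lines were in SERPINB2, SERPINB7 and SERPINB8 of 18q21, which were lower in BxPC-3-GR. SERPINB2, or plasminogen activator inhibitor 2, blocks the urokinase and tissue type activators of plasminogen. Its FPKM were 58.2, 34.2 and 66.7 in BxPC-3 and 3.17, 2.60 and 1.44 in BxPC-3-GR. Every resistant library lay far below every parental one, and replicate 2 of BxPC-3 was the lowest of its group. Mean levels were 53.0 ± 16.8 and 2.41 ± 0.880 FPKM (SD, n = 3), a 22.0-fold lower mean. On the log2(FPKM + 1) scale the difference was -3.97 (SE 0.30), and it lay between -4.25 and -3.75 when each library was left out in turn.

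SERPINB7, or megsin, is a serpin of keratinocytes and kidney mesangial cells. It stood at 7.69, 8.06 and 7.22 FPKM in BxPC-3 and at 1.05, 1.21 and 1.03 in BxPC-3-GR. The groups were tight and well apart, with means of 7.66 ± 0.420 and 1.097 ± 0.0981 FPKM, a 6.98-fold difference and a log2FC of -2.05 (SE 0.06). SERPINB8, which inhibits the proprotein convertase furin, stood at 1.74, 2.34 and 2.06 FPKM in BxPC-3 and at 0.460, 0.459 and 0.437 in BxPC-3-GR. The groups did not overlap, and the mean was 4.53-fold lower. The log2FC of SERPINB8 was -1.06 (SE 0.08) with a pseudocount of 1, which compresses such low values, and -1.95 with a pseudocount of 0.1. It sat close to the criterion of an absolute log2FC above 1, since it came to -0.996 without replicate 2 of BxPC-3 and was then not called.

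SERPINB5, or maspin, is not known to inhibit a protease and is studied as a tumor suppressor in epithelia. Its FPKM were 47.7, 52.0 and 47.1 in BxPC-3 and 33.4, 32.6 and 34.1 in BxPC-3-GR. The groups did not overlap, and the mean was 1.47-fold lower in BxPC-3-GR (log2FC -0.54, SE 0.06). SERPINB5 was thus the most abundant member in every BxPC-3-GR library, whereas in BxPC-3 it shared the top rank with SERPINB2.

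The other members of 18q21 overlapped between BxPC-3 and BxPC-3-GR. SERPINB3 and SERPINB4 are the squamous cell carcinoma antigens, of which the first inhibits cysteine cathepsins such as cathepsin L and the second chymotrypsin-like proteases such as cathepsin G. SERPINB3 had 12.1, 14.5 and 13.9 FPKM in BxPC-3 and 12.1, 13.3 and 20.2 in BxPC-3-GR, and its log2FC of 0.13 (SE 0.19) went from -0.08 to 0.27 with each library left out in turn. The single high library, replicate 3 of BxPC-3-GR, carried the positive sign. SERPINB4 was much lower, at 1.91, 2.20 and 2.22 against 1.69, 1.98 and 2.32 FPKM, with a log2FC of -0.06 (SE 0.09). SERPINB13, or headpin, an inhibitor of cathepsins K and L, had 1.32, 1.91 and 2.18 FPKM against 1.27, 1.34 and 1.61, with a log2FC of -0.21 (SE 0.13).

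The 3 genes of 6p25 lay above the parental level in BxPC-3-GR, none of them past the log2FC criterion. SERPINB1, an inhibitor of neutrophil elastase, proteinase 3 and cathepsin G, had 20.1, 20.2 and 19.3 FPKM in BxPC-3 and 28.6, 28.6 and 31.5 in BxPC-3-GR. SERPINB9, the inhibitor of granzyme B, had 9.34, 9.51 and 9.80 FPKM against 15.7, 14.8 and 17.5. Neither gene overlapped between the groups, and the means were 1.49-fold and 1.68-fold higher in the resistant line. The log2FC was 0.55 (SE 0.06) for SERPINB1 and 0.69 (SE 0.07) for SERPINB9. SERPINB6, an inhibitor of cathepsin G, differed least of the 3, with 15.96, 15.57 and 16.55 FPKM against 17.5, 16.9 and 17.9 (log2FC 0.11, SE 0.05, and 0.01 after GC content and length correction).

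All 10 members could be tested in the BxPC-3 lines, that is, had a mean of at least 1 FPKM over the 6 libraries. SERPINB8, with a mean of 0.452 FPKM in BxPC-3-GR, was high enough only through its BxPC-3 level. Only a decrease of SERPINB8 could therefore have been called. Calls were made by limma, at a false discovery rate under 0.05 (Benjamini-Hochberg) with an absolute log2FC greater than 1, and they came to 3 lower and 0 higher. Over all 11710 genes 7.76% were called, 3.62% lower and 4.14% higher. The groups did not overlap for 7 members, against 66.1% of all genes. The median log2FC was -0.54 over the 7 genes of 18q21, 0.55 over the 3 of 6p25 and -0.05 over all genes. Since this contrast was known when the members were chosen, nothing is read from these counts.

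**Figure D2:**
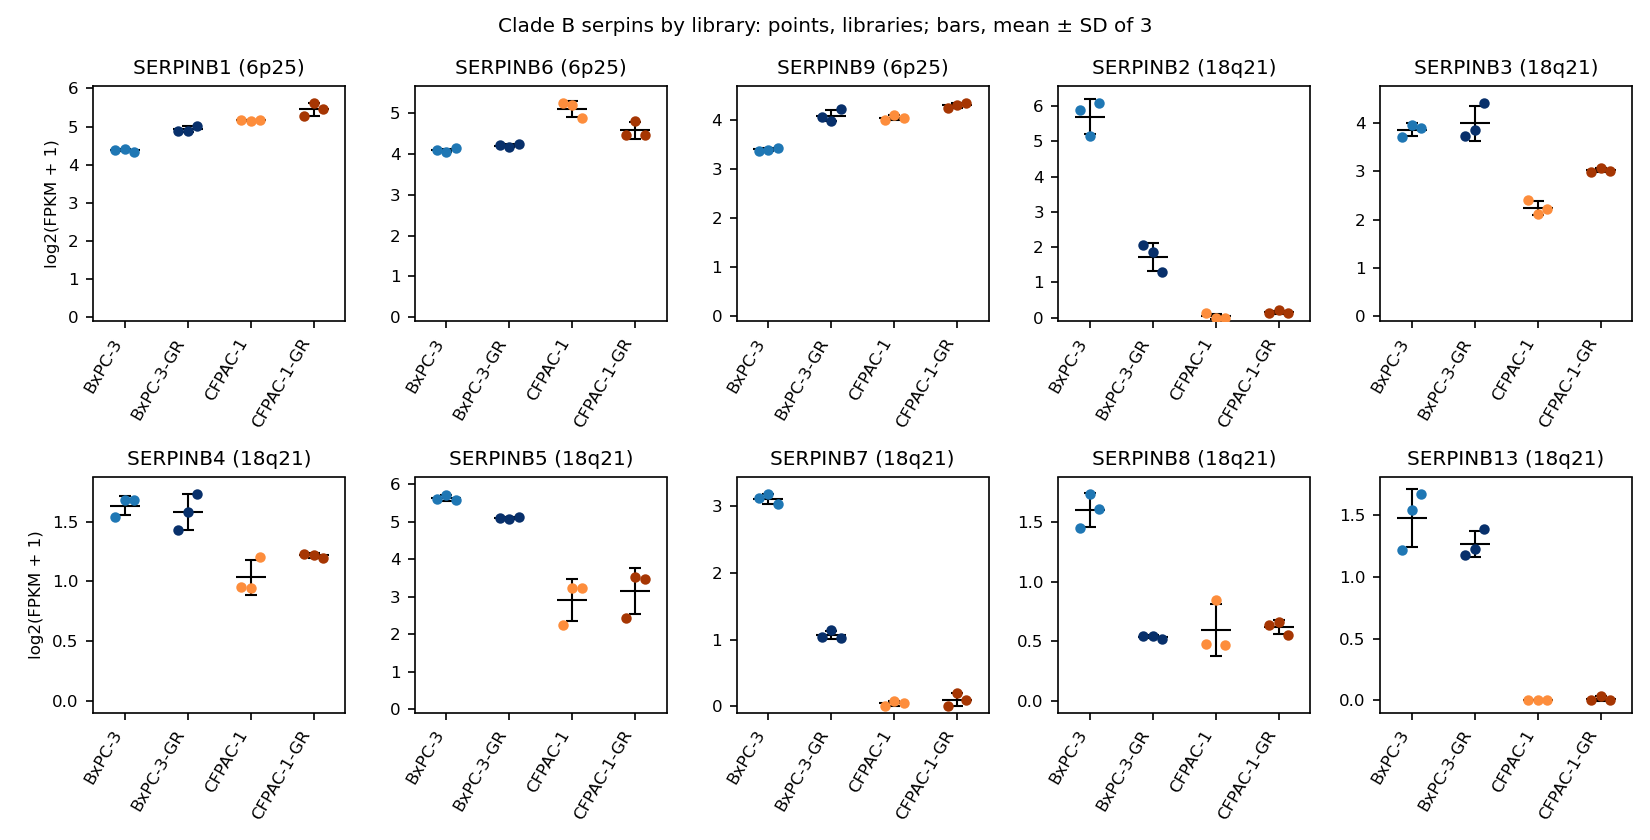
Level of each member, as log2(FPKM + 1), in the 12 libraries. Points are libraries and bars the mean ± SD of 3, and each panel has its own axis. SERPINB2, SERPINB7 and SERPINB8 are far lower in BxPC-3-GR than in BxPC-3, and SERPINB2, SERPINB7 and SERPINB13 lie near 0 in both CFPAC-1 lines.

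In the CFPAC-1 lines, 4 members were too low to be tested. SERPINB2 had 0.0861, 0 and 0 FPKM in CFPAC-1 and 0.0876, 0.154 and 0.0923 in CFPAC-1-GR, and SERPINB7 reached at most 0.150 FPKM in either line. SERPINB13 was listed at 0 in every library except replicate 2 of CFPAC-1-GR, with 0.0257 FPKM. SERPINB8 stood at 0.392, 0.802 and 0.382 FPKM in CFPAC-1 and at 0.559, 0.585 and 0.470 in CFPAC-1-GR, near the level of BxPC-3-GR. A decrease in the first 3 of these genes from such levels could not have been measured. For SERPINB2 the highest CFPAC-1 library (0.0861) lay just below the lowest CFPAC-1-GR library (0.0876).

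Of the members that were tested, SERPINB3 was the one with the largest difference. It had 4.28, 3.31 and 3.67 FPKM in CFPAC-1 and 6.94, 7.41 and 7.01 in CFPAC-1-GR. The groups did not overlap, and the mean was 1.90-fold higher in CFPAC-1-GR, with a log2FC of 0.78 (SE 0.09) that became 0.05 after GC content and length correction. SERPINB4, the gene most like it in sequence, had 0.931, 0.929 and 1.31 FPKM against 1.35, 1.33 and 1.29. Its groups overlapped, and its log2FC was 0.18 (SE 0.09), or -0.60 corrected.

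SERPINB6 was the member of 6p25 that was lower in CFPAC-1-GR. Its FPKM were 36.9, 35.6 and 28.3 in CFPAC-1 and 20.94, 27.08 and 20.98 in CFPAC-1-GR, and the groups came close but did not overlap. The mean was 1.46-fold lower, with a log2FC of -0.53 (SE 0.14) as deposited and -1.41 corrected, past the criterion in the latter case. SERPINB1 and SERPINB9 went the other way as deposited. SERPINB1 had 35.0, 34.5 and 34.9 FPKM in CFPAC-1 and 37.4, 48.0 and 43.2 in CFPAC-1-GR (log2FC 0.29, SE 0.10), and its corrected log2FC was -0.05. SERPINB9 had 14.94, 16.04 and 15.47 FPKM against 17.9, 18.8 and 19.3 (log2FC 0.25, SE 0.07), and its corrected log2FC was -0.34.

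SERPINB5 was uneven within both CFPAC-1 lines. It had 3.77, 8.44 and 8.40 FPKM in CFPAC-1 and 4.40, 10.6 and 10.1 in CFPAC-1-GR, with replicate 1 the lowest of each group. The log2FC of 0.24 had an SE of 0.38 and went from -0.09 to 0.60 with each library left out in turn, so that no direction could be given. The correction gave -0.51.

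Of the 6 members tested in the CFPAC-1 lines, 0 were called, against 32.2% of all 12051 genes. The groups did not overlap for 4 of the 6 and for 82.1% of all genes. The median log2FC was 0.25 for the members and 0.13 for all genes. After correction for GC content and length, 1 member (SERPINB6) was called. Scaling the libraries by the median of ratios shifted the median over all genes by -0.25 here, and under it SERPINB1, SERPINB5 and SERPINB9 came to -0.03, -0.04 and -0.05. The signs of these 3 genes therefore depended on the scaling, whereas SERPINB6 stayed below 0 and SERPINB3 above 0 under each scaling.

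**Figure D3:**
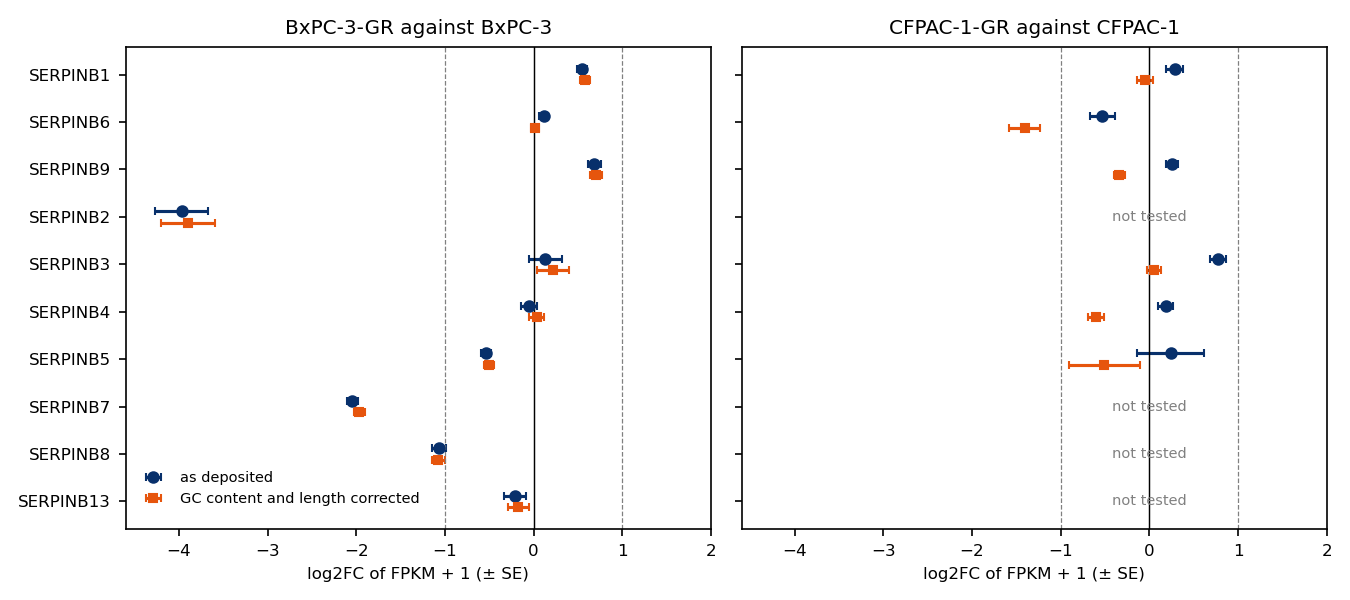
Difference in log2(FPKM + 1) ± SE between each resistant line and its parental line, as deposited (circles) and after correction for GC content and length (squares), with dashed lines at an absolute log2FC of 1. The circles and squares lie close together for BxPC-3-GR, whereas the corrected values of every tested member lie lower for CFPAC-1-GR, where SERPINB6 lies at -1.41 and 4 members were too low to test.

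Between the parental lines the loci were opposed. Each member of 18q21 was higher in BxPC-3 and each member of 6p25 higher in CFPAC-1, with no overlap of libraries for any of the 10. Among all 11842 genes tested the groups did not overlap for 85.6%. Other genes within 1 Mb of the members or between them leaned the same way by median. Of 12 tested at 6p25, 6 were called lower in BxPC-3 and 1 higher (median log2FC -0.77, members -0.78). After correction 1 was lower and 1 higher. Of 3 tested at 18q21, 2 were called higher and 0 lower (median 1.13, members 2.17), and 1 higher after correction. Over all genes 19.8% were called lower and 24.7% higher. SERPINB5 was 7.12-fold higher in BxPC-3 (log2FC 2.73, SE 0.27, corrected 1.93) and SERPINB3 3.60-fold higher (log2FC 1.61, SE 0.10, corrected 0.84). SERPINB2 and SERPINB7, at 53.0 and 7.66 FPKM in BxPC-3, were nearly absent in CFPAC-1. Their log2FC of 5.66 and 3.07 (corrected 4.91 and 2.29) depend on the pseudocount, since with 0.1 they were 8.70 and 5.92.

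SERPINB8 was 3.89-fold higher in BxPC-3 and just past the criterion (log2FC 1.004, SE 0.13), but its corrected log2FC was 0.13. SERPINB4 was 1.998-fold higher (log2FC 0.60, SE 0.09, corrected -0.23). On the side of 6p25, SERPINB6 was 2.10-fold lower in BxPC-3 (log2FC -1.01, SE 0.10, corrected -1.95). SERPINB1 and SERPINB9 were 1.75-fold and 1.62-fold lower (log2FC -0.78 and -0.64, corrected -1.10 and -1.27). Of the 9 members tested, 5 were called higher in BxPC-3 and 1 lower, where 24.7% and 19.8% of all genes were called (44.5% together). After correction the split was 3 higher and 3 lower. SERPINB2, SERPINB7 and SERPINB8 were high enough to test only through their BxPC-3 levels, so they could only have been called higher. Without replicate 2 of BxPC-3, 4 members were called. SERPINB8 fell short of the criterion without replicate 2 or 3 of BxPC-3 or replicate 1 or 3 of CFPAC-1 (0.94 to 0.999), as did SERPINB6 without replicate 2 of BxPC-3 or replicate 1 or 2 of CFPAC-1 (-0.996 to -0.94).

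The resistant lines stood closer to each other. All 10 members still kept apart, 6p25 higher in CFPAC-1-GR and 18q21 higher in BxPC-3-GR except SERPINB8, which had 0.452 ± 0.0130 FPKM in the former against 0.538 ± 0.0605 in CFPAC-1-GR. SERPINB2 was 21.6-fold higher in BxPC-3-GR, although at only 2.41 FPKM (log2FC 1.58, SE 0.19, corrected 1.63), and SERPINB5 3.98-fold higher (log2FC 1.95, SE 0.29, corrected 1.96). These were the 2 members called of 7 tested, against 17.1% of 12330 genes (6.8% higher and 10.3% lower). SERPINB2 was high enough to test only through its BxPC-3-GR level, so it could only have been called higher. SERPINB3 was 2.14-fold higher (log2FC 0.97, SE 0.18, corrected 1.02). It passed the criterion after correction, and without replicate 1 (1.10) or 2 (1.04) of BxPC-3-GR. The genes SERPINB1, SERPINB6 and SERPINB9 had log2FC of -0.52, -0.37 and -0.21 (corrected -0.46, -0.48 and -0.21). Groups did not overlap for 71% of all genes. Of 12 other genes tested within 1 Mb of 6p25, 5 were called lower in BxPC-3-GR and 0 higher. Of 3 at 18q21, 1 was called higher and 0 lower. Under median-of-ratios scaling SERPINB9 came to -0.04.

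The ranking of the family changed with the line. In BxPC-3, SERPINB2 and SERPINB5 led with overlapping levels, followed without overlap by SERPINB1, SERPINB6, SERPINB3, SERPINB9 and SERPINB7. SERPINB4, SERPINB8 and SERPINB13, at 2.11, 2.05 and 1.80 FPKM, could not be ranked among themselves. In BxPC-3-GR, SERPINB5 and SERPINB1 led, SERPINB6, SERPINB9 and SERPINB3 overlapped between 12.1 and 20.2 FPKM, and SERPINB2 had dropped to the level of SERPINB4.

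In CFPAC-1, SERPINB1 and SERPINB6 led with overlapping means of 34.8 and 33.6 FPKM, ahead of SERPINB9, SERPINB5 and SERPINB3. In CFPAC-1-GR they separated, with SERPINB1 at 42.9 ± 5.28 and SERPINB6 at 23.0 ± 3.53 FPKM. All 10 members reached 1 FPKM in each BxPC-3 library, 9 in each BxPC-3-GR library, and 5 or 6 in each library of the CFPAC-1 lines. The top member alone made up 26.6% to 42.1% of the summed FPKM of the family in a library.

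The response to resistance was also compared between the lines, as the difference of both log2FC in 1 fit of 12 libraries. It was -4.08 for SERPINB2 (-3.34 corrected) and -2.10 for SERPINB7 (-1.33 corrected). These were the 2 members called of 8 tested, against 38% of 12210 genes (23.6% lower). Both genes were near 0 in the CFPAC-1 lines, where a decrease could not have been measured. For SERPINB6 the difference was 0.64 (1.37 corrected), for SERPINB9 0.43 (0.9995 corrected), for SERPINB1 0.26 (0.60 corrected), for SERPINB5 -0.78 (-0.04 corrected, and -1.14 and called without replicate 1 of CFPAC-1-GR) and for SERPINB3 -0.65 (0.11 corrected). The median was -0.78 over the 5 tested genes of 18q21 and 0.43 over the 3 of 6p25, beside -0.22 over all genes. These values use the contrasts that were known when the members were chosen.

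The 3 remaining clade B genes of 18q21 were hardly expressed. SERPINB10, or bomapin, a serpin of myeloid cells, had 0.463, 0.319 and 0.314 FPKM in BxPC-3, 0.0237, 0 and 0.0360 in BxPC-3-GR and 0 in the CFPAC-1 lines. It overlaps SERPINB2 on the same strand, and 16.7% of its 100-base transcript stretches also occur in SERPINB2, so its values are uncertain where reads could be assigned to either gene. SERPINB11 and SERPINB12 reached at most 0.0364 and 0.103 FPKM in any library. Reads can be shared in a few other places. SERPINB3 and SERPINB4 have 57 such stretches in common, 3.21% and 2.71% of their own, and SERPINB8 shares 4.51% with the overlapping gene HMSD, which reached at most 1.13 FPKM. SERPINB3 overlaps SERPINB11 on the opposite strand, and SERPINB8 an antisense gene with at most 0.313 FPKM. Whether counting used the strand is not given in the sources used here.

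The coding sequences of the members are alike in length, from 1125 bases in SERPINB8 to 1248 in SERPINB2. SERPINB3 and SERPINB4, both with 1173 bases, are 95.2% identical. All other pairs lie between 57.8% and 73.3%, and the most alike of them are SERPINB9 and SERPINB8 of different loci. The median identity is 60.4% within 18q21 (21 pairs), 61.6% within 6p25 (3 pairs) and 62.4% between the loci (21 pairs). Of the members called lower in BxPC-3-GR, SERPINB2 and SERPINB8 are 66.3% identical, the highest value that SERPINB2 has with any member, and SERPINB7 is 61.4% identical to SERPINB2 and 60.2% to SERPINB8. The near-identical pair differed in level, with a mean of 13.5 FPKM for SERPINB3 and 2.11 for SERPINB4 in BxPC-3, and 7.12 and 1.32 in CFPAC-1-GR.

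The members of 18q21 span 18:63476761-64019779 on GRCh38, in the order SERPINB5, SERPINB13, SERPINB4, SERPINB3, SERPINB7, SERPINB2 and SERPINB8. The 3 genes called lower in BxPC-3-GR are the last 3 of this order. SERPINB7 lies at 18:63752935-63805376, SERPINB2 at 18:63871692-63903890 and SERPINB8 at 18:63969925-64019779, all on the plus strand. The 4 genes before them were not called. SERPINB4 at 18:63637259-63644298 and SERPINB3 at 18:63655197-63661963 are on the minus strand, and SERPINB5 and SERPINB13 on the plus strand like the called genes. Of the 25 other genes within 1 Mb of the ends or between the members, 4 were tested in the BxPC-3 lines and 0 called, where 7.76% of all genes were, with log2FC from -0.19 to 0.52 and 2 with a limma p below 0.05 before and after adjustment. All 4 lie on the side of SERPINB5, and no gene beyond SERPINB8 within the window was high enough to test.

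In the CFPAC-1 lines, where 32.2% of all genes were called, 3 neighbors of 18q21 were tested and 1 called. VPS4B, a sorting ATPase of the endosome whose midpoint lies at -85.1 kb from that of SERPINB5, was higher in CFPAC-1-GR with a log2FC of 1.19 (limma adjusted p = 1.27e-05) but 0.25 after correction. The members of 6p25 span 6:2832332-2972165, all on the minus strand, with SERPINB1 at 6:2832332-2842006, SERPINB9 at 6:2887266-2903280 and SERPINB6 at 6:2948159-2972165. Of 45 neighbors within 1 Mb, 10 were tested in the BxPC-3 lines and 0 called by limma, where 7.76% of all genes were. Of these 10, 7 had an unadjusted limma p below 0.05, and log2FC went from -0.79 to 0.89. In the CFPAC-1 lines 14 were tested, with 1 called higher and 1 lower as deposited, and 3 higher and 0 lower after correction. The pseudogene HTATSF1P2 was higher (log2FC 1.10, adjusted p = 0.000441, corrected 1.38), and GMDS, an enzyme of fucose synthesis, was lower (log2FC -1.01, adjusted p = 5.62e-05, corrected -0.36). The first was not called without replicate 3 of CFPAC-1 or replicate 1 of CFPAC-1-GR (0.99 to 0.996), nor GMDS without replicate 2 or 3 of CFPAC-1 or replicate 1 or 3 of CFPAC-1-GR (-0.99 to -0.96).

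**Figure D4:**
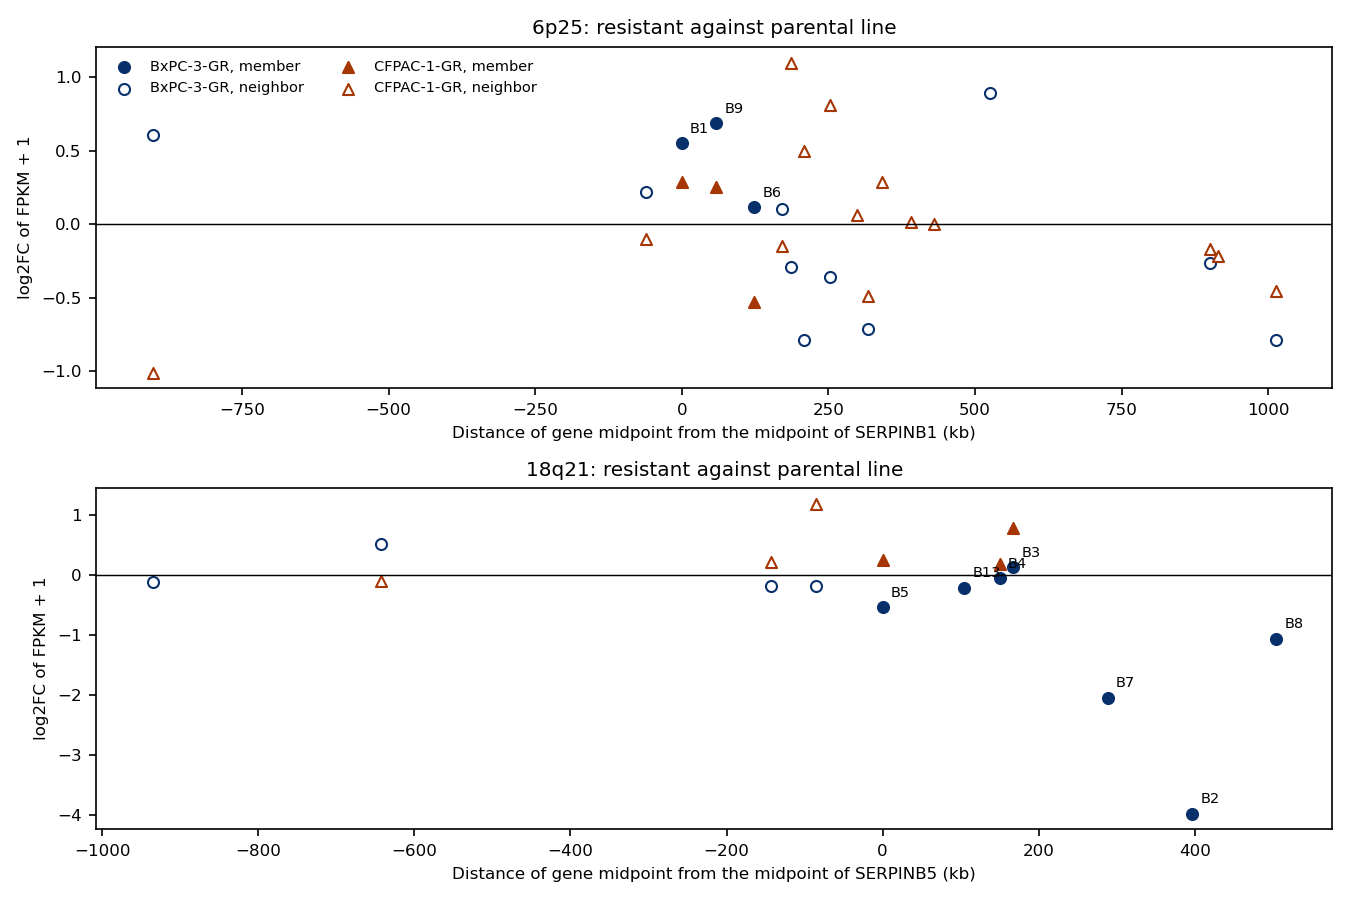
Difference in log2(FPKM + 1) between resistant and parental line against the distance of each tested gene from SERPINB1 (top, 6p25) or SERPINB5 (bottom, 18q21), in kb. Filled points are members and open points neighbors. In 18q21 the blue points of SERPINB7, SERPINB2 and SERPINB8 lie at -2.05, -3.97 and -1.06, while the blue neighbors stay between -0.19 and 0.52.

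Genes with the most similar pattern over the 12 libraries were found as those with the smallest root mean square difference of centered log2(FPKM + 1). For SERPINB7, whose own root mean square deviation was 1.24, these were KRT6C (0.147), HBE1 (0.167) and IL1RL1 (0.204). KRT6C, a keratin of stratified epithelium, had mean levels of 6.74, 1.38, 0.05 and 0.14 FPKM in BxPC-3, its resistant derivative, CFPAC-1 and its derivative. For SERPINB2, with a deviation of 2.31, they were CALB1 (0.681), SPRR1A (0.748) and SPRR2A (0.829). The small proline-rich proteins SPRR1A and SPRR2A are precursors of the cornified envelope of keratinocytes, and SPRR1A had 41.7, 7.94, 0 and 0.06 FPKM in the same order. For SERPINB5 they were TNNI2, GALNT12 and MX2, with differences of 0.349 to 0.366 against a deviation of 1.24.

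SERPINB3 was closest to GINM1 and WEE1 and SERPINB4 to LNP1, ARHGEF35 and CBFA2T2. Among the genes of 6p25, SERPINB1 was closest to ZFYVE1, BCDIN3D and CALCOCO1, SERPINB6 to STX5, POLR2H and NDUFS3, and SERPINB9 to INPP5B, COPG2 and CAMK2G. No member was among the 3 closest genes of another member. SERPINB8 and SERPINB13 had means of 0.890 and 0.804 FPKM over the 12 libraries and were not ranked. The likeness is a description over 12 libraries of 4 lines and carries no test.

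Gene lists that hold proteases known to be inhibited by clade B serpins, beside other genes, were examined as well. Of 8 genes of plasminogen activation, which SERPINB2 restrains, 6 were tested in each line. In BxPC-3-GR, PLAT, the tissue type activator, rose from 8.59, 7.91 and 8.93 FPKM to 82.1, 89.3 and 99.6 (log2FC 3.27, SE 0.09, limma adjusted p = 3.25e-06). The libraries were far apart, in the line in which SERPINB2 was lower. PLAUR, the receptor of urokinase, fell from 9.83, 9.46 and 8.02 FPKM to 3.35, 3.37 and 2.74 (log2FC -1.28, adjusted p = 0.000123). PLAU, urokinase itself, had a log2FC of 0.62 (adjusted p = 0.000567) from a mean of 34.6 to 53.5 FPKM, short of the log2FC criterion.

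PLAU, which at 617, 633 and 594 FPKM in CFPAC-1 was far above its BxPC-3 level, fell in CFPAC-1-GR to 154, 229 and 224 (log2FC -1.62, adjusted p = 6.97e-05, corrected -1.07). S100A10, a plasminogen receptor subunit, had a log2FC of -1.55 (adjusted p = 0.00431), which was -0.70 and no longer called after correction. PLAUR had -0.97 (adjusted p = 0.000531, corrected -0.37), which was called without replicate 3 of CFPAC-1-GR (-1.11), with a pseudocount of 0.1 (-1.15) and under median-of-ratios scaling (-1.23). PLAT had -0.48 (adjusted p = 0.0698, corrected -0.94 and not called). The difference of response between the lines, tested in 1 fit, was 3.75 for PLAT (adjusted p = 1.73e-07, corrected 4.14) and 2.24 for PLAU (adjusted p = 8.23e-07, corrected 1.70).

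Of 15 cathepsins, proteases of which SERPINB3 and SERPINB13 inhibit only some, such as cathepsin L, 10 were tested in each line. In BxPC-3-GR 1 of them, CTSE, an aspartic protease of gastric epithelium, passed the criteria, beside 7.76% of all genes. It went from a mean of 0.196 to 2.90 FPKM (log2FC 1.71, adjusted p = 4.17e-06). CTSE was high enough to test only through its BxPC-3-GR level, so only a rise could have been called. CTSL, CTSS and CTSV, which are cysteine proteases, had log2FC of -0.93, -0.28 and 0.44 there, and CTSL was called without replicate 2 of BxPC-3 (-1.003). In CFPAC-1-GR 0 of the 10 cathepsins were called by limma, beside 32.2% of all genes, although 8 had an unadjusted p below 0.05, and CTSL, CTSS and CTSV had log2FC of 0.67, 0.73 and 0.65. After correction these were 1.14, -0.19 and -0.18, so that CTSL then passed and the other signs turned. In the difference of response, 6 of 10 cathepsins were called, beside 38% of all genes. Of these, 2 were below 0, namely CTSL (-1.60, adjusted p = 6.68e-06, corrected -2.04) and CTSS (-1.01, corrected -0.11). The 4 above 0, named after their values were seen, were CTSA (1.61), CTSD (1.33), CTSB (1.25) and CTSF (1.17). After correction CTSL, CTSB (1.01) and CTSC (1.74) were called.

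Of 13 leukocyte proteases and partners, CASP1, an inflammatory caspase, was the only one high enough to test. Its log2FC was -0.47 (adjusted p = 0.0072) in the BxPC-3 lines against 1.004 in CFPAC-1-GR (adjusted p = 0.000129), where it was no longer called after correction (0.22) or without replicate 1 or 2 of either line (0.94 to 0.98). With a mean of 0.548 FPKM in CFPAC-1, CASP1 was high enough to test there only through its CFPAC-1-GR level. The classical targets of SERPINB1, SERPINB6 and SERPINB9, namely ELANE, PRTN3, CTSG and GZMB, were listed at 0 in all 12 libraries. Of 15 kallikreins 0 were tested in the BxPC-3 lines and 7 in the CFPAC-1 lines. There KLK5 rose from 0.742, 0.843 and 0.642 FPKM to 5.71, 6.85 and 10.7 (log2FC 2.29, adjusted p = 4.13e-05, corrected 3.27). KLK5 too was high enough to test only through its CFPAC-1-GR level, so only a rise could have been called. KLK6 rose (log2FC 1.73, adjusted p = 6.25e-06, corrected 2.58) and KLK11 fell (log2FC -1.25, adjusted p = 1.39e-05), although its corrected value was -0.48.

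Among the serpins of other clades, SERPINE2, or protease nexin 1, which also inhibits plasminogen activators, fell in BxPC-3-GR from 4.43, 4.14 and 4.01 FPKM to 1.53, 1.54 and 1.36 (log2FC -1.07, limma adjusted p = 3.57e-05). SERPINB2 and SERPINE2 thus both stood lower in BxPC-3-GR while PLAT was higher, and PLAUR was lower there too. A link between these RNA levels was not tested. In CFPAC-1-GR 6 of the 21 serpins of other clades were tested and 0 called by limma, beside 32.2% of all genes. The only unadjusted limma p below 0.05 was that of SERPINE2 (log2FC -0.58, adjusted p = 0.000424, corrected -1.61 and called).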

How the data were processed

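RNA of 4 lines was sequenced in 3 replicates each. The authors deposited FPKM values for 58302 genes in 1 table, and all 12 columns were used. The submitters' processing notes name Trimmomatic 0.27, FastQC 0.10.1, TopHat2 2.0.8 and the builds hg19 and GRCh38, and the study's methods name GRCh38. The counting program is not given in the sources used here. Positions and types came from GENCODE 29 (58039 genes matched), with GC content from the longest transcript, and promoters from RefSeq.

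Lines were compared with limma 3.58.1 in R 4.3.3 (lmFit, eBayes) on log2(FPKM + 1) over all genes whose mean in the compared libraries was 1 FPKM or more. The log2FC is on this scale and understates changes of low genes. A call was an adjusted p (Benjamini-Hochberg, over all genes tested) below 0.05 and an absolute log2FC above 1. The study's methods name a test for counts, which FPKM values do not allow. Exact permutation of 3 against 3 gives no p below 0.1. Tested on simulated data with 200 changed genes, the fits recovered 97% in the BxPC-3 lines (2 false calls among 11770 genes). They recovered 98.5% in the CFPAC-1 lines (6 among 12106) and 96.5% of differences of response (3 among 12285). How often calls are false in the sequenced libraries, where changes followed GC content in CFPAC-1-GR, was not tested.

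The members, lists, motifs and tests were chosen with earlier results of these data known. Named were all members, the 3 other clade B genes of 18q21, up to 3 called genes per list, direction and line, known serpin targets and partners where tested, called neighbors and the 3 genes of most similar pattern. The targets listed at 0 are outside this rule, and a few genes that it names are not reported here. Low values were whole multiples of 1 fragment, within 0.1, for 45.8% to 54.2% of values, so reads were not recovered. Depth limits genes under 1 FPKM most. Alternatives were a pseudocount of 0.1, no filter, the replicate block, a spline correction for GC content and length (5 degrees of freedom each, alone and with the block), median-of-ratios scaling, all libraries in 1 fit and each library left out. The log2 ratio of mean FPKM was added after the values were seen. A planned comparison of protein sequences was not run, and coding sequences were compared instead. Figures used matplotlib 3.10.9 in Python 3.11.15.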

Additional observations from a re-analysis of the deposited data

Results flagged for a closer look

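The libraries of SERPINB6 separated in opposite directions in the lines: every BxPC-3-GR library lay above every BxPC-3 library and every CFPAC-1-GR library below every CFPAC-1 library. Groups did not overlap for 66.1% of all genes in the BxPC-3 lines and for 82.1% in the CFPAC-1 lines. On the log2(FPKM + 1) scale the BxPC-3-GR change was 0.11, with a 95% confidence interval from -0.008 to 0.237. It fell to 0.01 (SE 0.04) after correction for GC content and length. A rise of SERPINB6 in BxPC-3-GR was therefore not clear. The change of CFPAC-1-GR was -0.53, or -1.41 corrected. The difference of response was 0.64, short of an absolute difference above 1, and 1.37 and past it after correction. No p is given for it, since the gene was chosen with these values known.

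Among the other genes named, 12 responded differently in the lines by limma's interaction term (adjusted p below 0.05 and an absolute difference above 1), where 38% of all genes did. Apart from PLAT, PLAU, KLK5, CTSL and CTSS, which are known targets or partners, they were named because they were called in CFPAC-1-GR. Those calls used the same libraries, so the count cannot be set against that share. The difference is the log2FC of the BxPC-3 lines minus that of the CFPAC-1 lines. It was positive for PLAT (3.75, corrected 4.14), PLAU (2.24, corrected 1.70), GMDS (1.61, corrected 0.93), KLK11 (1.30, corrected 0.53) and S100A10 (1.15, corrected 0.32). It was negative for KLK5 (-2.29, corrected -3.28), KLK6 (-1.63, corrected -2.47), CTSL (-1.60, corrected -2.04) and CASP1 (-1.48, corrected -0.69). It was also negative for HTATSF1P2 (-1.39, corrected -1.62), VPS4B (-1.38, corrected -0.45) and CTSS (-1.01, corrected -0.11). S100A10 came to 0.92 without replicate 3 of CFPAC-1-GR, and CTSS to between -0.996 and -0.97 without replicate 3 of BxPC-3 or replicate 1 of either CFPAC-1 line, all short of the criterion. Median-of-ratios scaling also ended the call of CTSS (-0.73), and a pseudocount of 0.1 that of KLK6 (-1.20). KLK5 was listed at 0 in all BxPC-3 and BxPC-3-GR libraries, and KLK6 and KLK11 reached at most 0.256 and 0.393 FPKM there. These 3 genes could be tested through their CFPAC-1 levels alone, a decrease in the BxPC-3 lines could not have been measured, and their differences restate the changes in CFPAC-1-GR.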

How the results depend on the processing

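The count of members called stayed within 1.5 times its value under the alternatives listed above, except in CFPAC-1-GR, where the correction for GC content and length gave 1 (SERPINB6) in place of 0, alone and with the block. Leaving out each library gave 2 to 3 members called in BxPC-3-GR, 0 in CFPAC-1-GR, 4 to 6 between the parental lines, 2 between the resistant lines and 2 to 3 for the difference of response. Over all genes, calls went from 909 to 1429 with a pseudocount of 0.1 in BxPC-3-GR, and with the correction from 3880 to 1134 in CFPAC-1-GR, from 5274 to 3197 between the parental lines and from 4643 to 2394 for the difference of response. The replicate block changed no count of members called (3, 0, 6, 2 and 2 with it). The shared numbers were not taken as pairs, because deviations of same-numbered libraries correlated at 0.096, -0.052 and 0.058 in the BxPC-3 lines and at 0.0001, -0.143 and -0.067 in the CFPAC-1 lines. Of 590 member values under alternatives, 493 moved by less than the spread between replicates. This count is not a measure of stability, because several alternatives cannot move a log2FC in this balanced design. They are no filter, the replicate block (alone or added to the correction) and all libraries in 1 fit. Signs of member values turned under the correction in CFPAC-1-GR for SERPINB1 (-0.05), SERPINB9 (-0.34), SERPINB4 (-0.60) and SERPINB5 (-0.51), for SERPINB4 in BxPC-3-GR (0.03) and between the parental lines (-0.23), and in the difference of response for SERPINB3 (0.11) and SERPINB4 (0.58). For the other genes named by the rule, within each pair of resistant and parental line and in the difference of response, signs turned under the correction, with or without the block, for CTSS (-0.19) and CTSV (-0.18) in CFPAC-1-GR and, in the difference of response, for SERPINE2 (0.48) and CTSV (0.59, and 0.057 under median-of-ratios scaling). Median-of-ratios scaling ended the calls of CASP1 (0.83), HTATSF1P2 (0.81) and VPS4B (0.91) in CFPAC-1-GR. The log2 ratio of mean FPKM, without a pseudocount, was -4.46 for SERPINB2, -2.80 for SERPINB7 and -2.18 for SERPINB8 in BxPC-3-GR. Median-of-ratios scaling moved the median of all genes by -0.14 between the parental lines, 0.14 between the resistant lines and 0.27 in the difference of response. Depth left no room to measure a decrease of SERPINB2, SERPINB7 or SERPINB13 in the CFPAC-1 lines.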
